A study of Homo sapiens with 15 samples.

Results

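The 9 genes described here encode components and regulators of complement: the C1 proteases C1R and C1S and their relative C1RL, the central component C3, complement factor B (CFB), the soluble inhibitors SERPING1 and CFI, and the membrane inhibitors CD55 and CD59. They were chosen by symbol with earlier results of these data known, so counts of called genes describe these 9 only. All 9 were among the 11963 genes measured. Each gene was represented by its probe set with the highest mean over all arrays. Transcript levels were measured on 15 Affymetrix arrays in the MCF-10A cell line, which derives from human breast epithelium and grows without being tumorigenic, 48 hours after retroviral or adenoviral infection. In the knockdown arm, 2 arrays each came from cells with a short hairpin RNA against the DNA-binding domain common to every p63 isoform (shDBD), a hairpin against the isoforms with the transactivating domain (shTA), and the shRNA vector. In the overexpression arm, 3 arrays each came from cells given the p63 isoform ΔNp63α, which lacks that N-terminal domain, the isoform TAp63γ, which carries it, and the vector of that arm. The labels call the replicates biological but do not say whether they were separate infections, which virus served which arm, or whether any group was a selected clone. p-values therefore measure the spread between these samples.

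Complement is a cascade of blood and tissue proteins that tags and lyses microbes and draws in immune cells. In the classical pathway, C1r activates C1s, which cleaves the next components; in the alternative pathway, factor B supplies the protease that cleaves C3, and all routes meet at C3. C1 inhibitor (SERPING1) blocks C1r and C1s, factor I (CFI) degrades the activated C3 fragment, CD55 speeds the decay of the enzymes that cleave C3, and CD59 blocks assembly of the membrane attack complex. The liver makes most plasma complement, and epithelial cells make several components locally, under the control of interferons and inflammatory cytokines. p63, a p53-related transcription factor, marks the basal layer of such epithelia.

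CFB, C1R and C1S were called higher in all 4 treated groups, and C3 and CD59 in all but shTA. With the probe sets used, C1RL and CD55 were called higher with shDBD and lower with both p63 isoforms. RefSeq promoter windows (build GRCh38.p14) were at hand for 6 of the 9 genes. Those of 4 genes are shown, each covering the 250 bases before an annotated start: CFB, which changed most, C1R and C1RL, which are neighbours on chromosome 12 and moved in opposite directions on overexpression, and CFI, which separated the p63 isoforms. Capitals mark matches to the 4 motifs searched on both strands.
CFB (chr6:31945845-31946094, + strand): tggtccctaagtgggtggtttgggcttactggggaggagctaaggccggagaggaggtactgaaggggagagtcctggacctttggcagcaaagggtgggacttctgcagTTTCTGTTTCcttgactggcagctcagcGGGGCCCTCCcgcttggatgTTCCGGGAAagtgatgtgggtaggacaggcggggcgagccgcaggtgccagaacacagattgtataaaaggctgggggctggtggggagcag
C1R (chr12:7091894-7092143, - strand): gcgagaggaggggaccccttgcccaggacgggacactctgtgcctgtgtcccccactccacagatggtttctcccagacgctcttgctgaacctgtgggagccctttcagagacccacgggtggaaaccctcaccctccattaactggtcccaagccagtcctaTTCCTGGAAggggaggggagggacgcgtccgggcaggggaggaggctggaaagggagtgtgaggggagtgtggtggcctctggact
C1RL (chr12:7109215-7109464, - strand): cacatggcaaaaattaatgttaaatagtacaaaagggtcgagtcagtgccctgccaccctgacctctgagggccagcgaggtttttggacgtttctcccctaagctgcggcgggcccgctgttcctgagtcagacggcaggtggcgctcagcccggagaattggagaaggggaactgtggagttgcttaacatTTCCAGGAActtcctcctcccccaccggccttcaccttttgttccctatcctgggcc
CFI (chr4:109802000-109802249, - strand): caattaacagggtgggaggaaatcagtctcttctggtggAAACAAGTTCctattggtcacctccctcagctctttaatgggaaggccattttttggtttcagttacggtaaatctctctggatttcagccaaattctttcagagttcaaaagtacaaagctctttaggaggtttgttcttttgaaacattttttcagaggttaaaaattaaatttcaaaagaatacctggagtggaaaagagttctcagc
The interferon-stimulated response element core (TTTC, any 2 bases, TTTC) matched in the CFB window, 140 to 131 bases before the start, and in 3.02% of the 35116 promoter windows of the annotation. The gamma-activated site (TTCNNNGAA) matched in the CFB and C1RL windows, 1 of the 2 C1R windows and 2 of the 4 CD59 windows. Those 2 CD59 windows overlap and hold the same site. Of all windows, 6.57% held a match. The NF-kB site matched in CFB (9.96% of all windows), and the p53 family half-site in CFI and in 1 of the 4 CD59 windows (5.57% of all windows). The other of the 2 C1R windows and the CD55 window held no match to these 4 motifs. These matches describe letters only and are not shown to be bound.

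Values are log2 expression levels after RMA, and the arms are compared only within themselves, since their distributions differed (medians of 7.189 to 7.213 over the knockdown arrays and 6.951 to 6.983 over the overexpression arrays). An array has no read depth, so the number of arrays limits the precision. Levels under an array's 20th percentile were treated as possible background, which applied to 4 arrays for SERPING1 and to none for the other 8 genes. All 8 measured epithelial markers were above that level on every array, and so were some markers of other cell types. With the shRNA vector, the hepatocyte marker CYP3A4 read 8.29 and 8.16 and the leukocyte marker CD3E 6.75 and 6.81. These readings lay above those of C1S (6.59 and 6.19), C1RL (6.03 and 6.45) and CFI (6.72 and 6.58). A level above the 20th percentile therefore does not by itself show that a gene was expressed. Changes are log2 fold changes ± SE from limma, fitted over all genes, with a gene called where its Benjamini-Hochberg adjusted p was under 0.05. Lack of overlap between groups only describes the arrays, and its share over all genes was not counted. The transcript of the targeted or introduced gene was not analysed here, and no check of the labels rests on it.

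**Figure D1:**
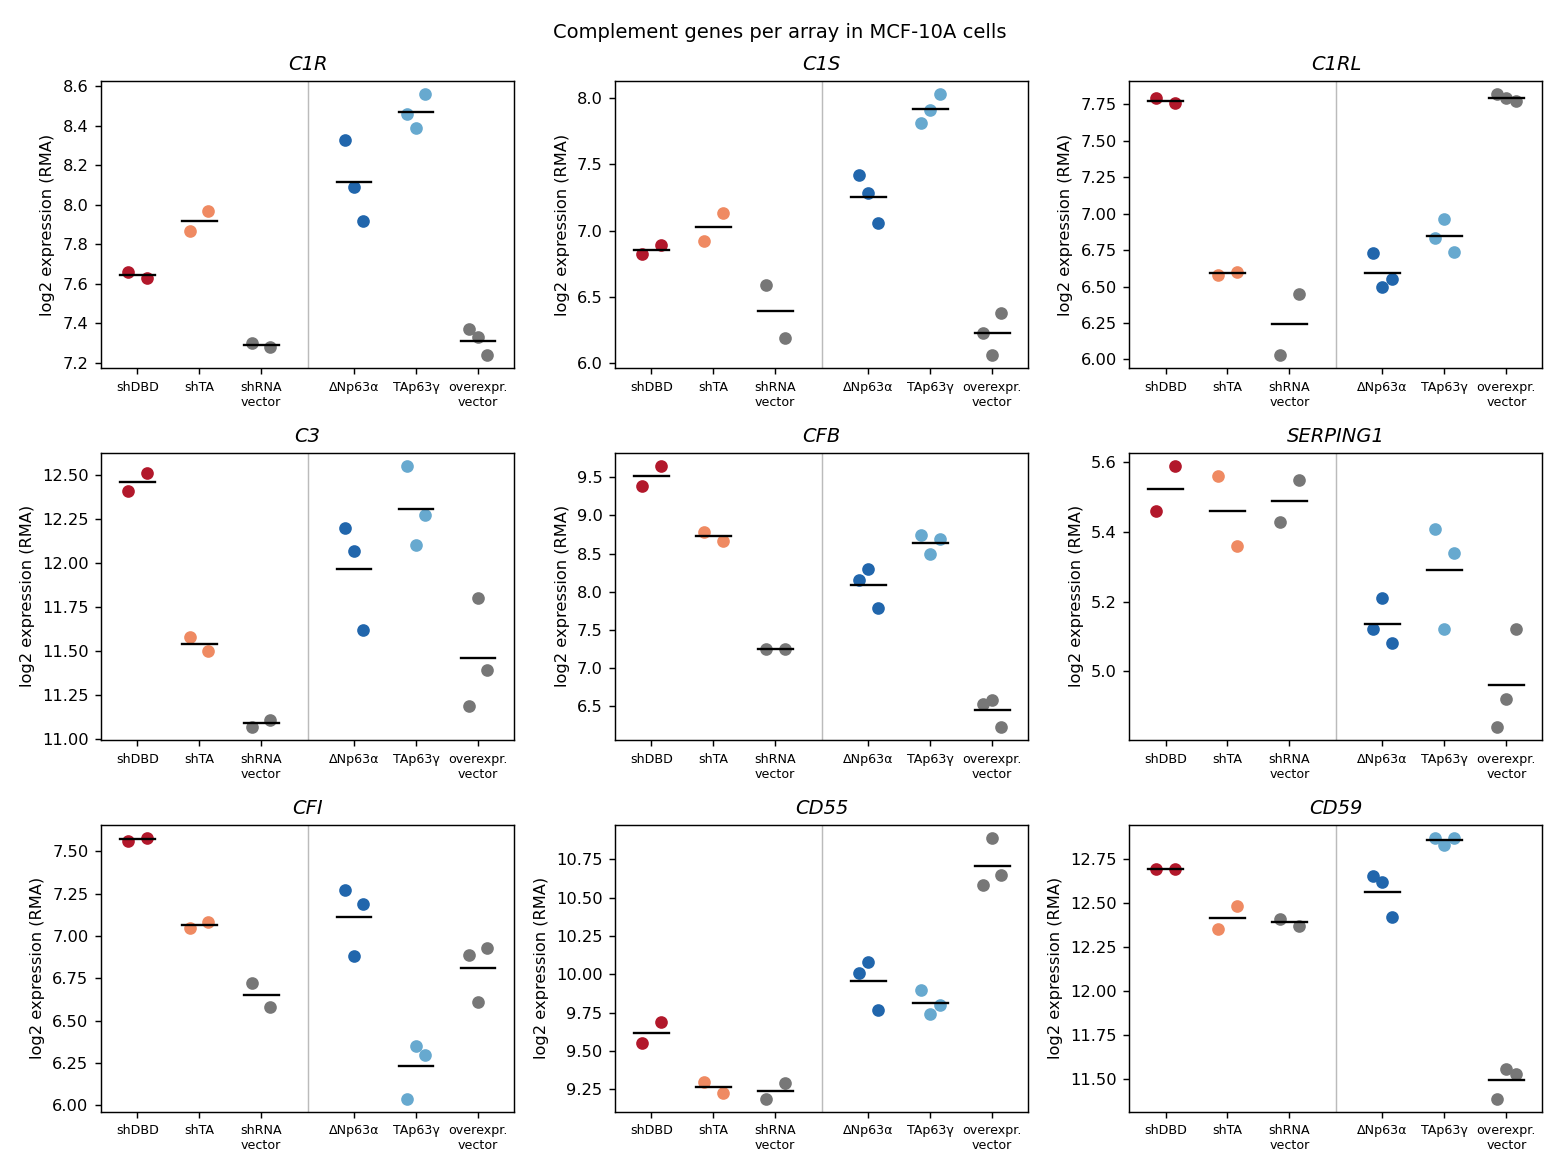
Log2 expression (RMA) of each of the 9 complement genes on each array (points) with the group mean (line); the grey vertical line separates the knockdown arm (2 arrays a group) from the overexpression arm (3 arrays a group), and the vertical scale differs between panels. CFB lay above its vector arrays in every treated group, and C1RL and CD55 lay above the shRNA vector with shDBD and below the overexpression vector with ΔNp63α and TAp63γ.

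With shDBD, which is aimed at every p63 isoform, 8 of the 9 complement genes rose and 0 fell against the shRNA vector, where 21.3% of all genes were called (11.1% higher, 10.2% lower). The median change was 0.46 over the 9 genes and 0.00 over all genes. CFB, C1RL and C3 rose more than 2-fold, a size reached with a call by 2.83% of all genes. The count of 8 was less firm than these 3 genes: it was 5 without shRNA vector replicate 1 and 4 without shRNA vector replicate 2 or without either shDBD array.

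CFB stood at 9.39 and 9.65 with shDBD, against 7.25 and 7.25 with the shRNA vector, and rose 4.85-fold (2.28 ± 0.16, adjusted p = 9.52e-08). It was the 9th highest change of 11963 genes. A second CFB probe set was not called (−0.07 ± 0.14, adjusted p = 0.816), and the mean of both gave 1.10. Both shDBD arrays were above both vector arrays by a margin far wider than the spread within either group. C3 stood at 12.41 and 12.51 with shDBD, against 11.07 and 11.11 with the vector (1.37 ± 0.19, adjusted p = 8.20e-05). So the 2 genes whose products form the alternative-pathway C3-cleaving enzyme were both higher, without overlap between groups.

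C1RL, which encodes a protease related to C1r that is known to cleave the haptoglobin precursor, stood at 7.79 and 7.76 with shDBD, against 6.03 and 6.45 with the vector. Its rise of 1.53 ± 0.12 (2.89-fold, adjusted p = 2.38e-07) was the 32nd highest of all genes. The C1 proteases themselves moved less. C1R was at 7.66 and 7.63 with shDBD, against 7.30 and 7.28 with the vector (0.35 ± 0.11, adjusted p = 0.0393), and C1S at 6.82 and 6.89, against 6.59 and 6.19 (0.46 ± 0.15, adjusted p = 0.0335). The groups did not overlap for either gene. The C1R call was lost on leaving out any 1 of the 6 knockdown arrays (adjusted p of 0.0501 to 0.169), and the C1S call without shRNA vector replicate 2 (0.348) or either shDBD array (0.101 and 0.161).

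Among the inhibitors, CFI changed most with shDBD. The factor I transcript was at 7.56 and 7.58, against 6.72 and 6.58 with the vector (0.92 ± 0.14, 1.89-fold, adjusted p = 1.52e-04), with no overlap. CD59 was at 12.69 and 12.69, against 12.41 and 12.37 (0.30 ± 0.083, adjusted p = 0.0183), and CD55 at 9.55 and 9.69, against 9.19 and 9.29 (0.38 ± 0.12, adjusted p = 0.0355). Both membrane inhibitors were thus slightly higher, and both calls were lost without either vector array or either shDBD array (adjusted p of 0.0648 to 0.115 for CD59 and 0.0661 to 0.223 for CD55). A second CD55 probe set of nearly the same mean level gave the opposite sign without a call (−0.32 ± 0.15, adjusted p = 0.158), so the direction of CD55 with shDBD is not settled. SERPING1 was at 5.46 and 5.59 with shDBD, against 5.43 and 5.55 (0.03 ± 0.11, 95% interval −0.20 to 0.27), and its groups overlapped.

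With shTA, 3 of the 9 genes rose and 0 fell, where 2.29% of all genes were called (1.44% higher). The 3 were CFB, C1R and C1S. CFB stood at 8.79 and 8.66, against 7.25 and 7.25 with the shRNA vector, and rose 2.79-fold (1.48 ± 0.16, adjusted p = 7.87e-05), the 7th highest change of all genes. C1R was at 7.87 and 7.97 with shTA, against 7.30 and 7.28 (0.63 ± 0.11, adjusted p = 0.00746), and C1S at 6.92 and 7.13, against 6.59 and 6.19 (0.63 ± 0.15, adjusted p = 0.0328). All 3 were higher on both shTA arrays than on either vector array. The count fell to 1 without shTA replicate 2, which left CFB alone, and rose to 5 with the knockdown arm fitted on its own arrays. The C1R call was lost without either vector array (adjusted p = 0.0734 and 0.0808) or shTA replicate 2 (0.108), and the C1S call without shRNA vector replicate 2 (0.302), either shTA array (0.0754 and 0.331) or either shDBD array (0.0509 for each).

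The other genes did not pass with shTA. Those without overlap between groups were C3 (0.45 ± 0.19, adjusted p = 0.313), CFI (0.41 ± 0.14, adjusted p = 0.154) and C1RL (0.35 ± 0.12, adjusted p = 0.166). With 2 arrays a group, such separation can easily arise without a change, so it adds little to these values. C3 was at 11.58 and 11.50 with shTA, against 11.07 and 11.11 with the vector, and CFI at 7.05 and 7.08, against 6.72 and 6.58. With the arms fitted separately, C3 (adjusted p = 0.00131) and CFI (0.0126) passed. C1RL passed without shRNA vector replicate 2 (adjusted p = 0.0415). The inhibitors CD55 (0.02, 95% interval −0.24 to 0.28), CD59 (0.02, −0.16 to 0.20) and SERPING1 (−0.03, −0.27 to 0.21) overlapped with the vector.

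Both hairpins share their control arrays, so they were also tested directly. There, 5 of the 9 genes were higher with shDBD than with shTA and 0 lower, where 18.4% of all genes were called (9.14% higher, 9.23% lower). C1RL differed most (1.18 ± 0.12, adjusted p = 4.31e-06), with arrays at 7.79 and 7.76 for shDBD and 6.58 and 6.60 for shTA. C3 (0.92 ± 0.19, adjusted p = 0.00283) and CFB (0.80 ± 0.16, adjusted p = 0.00197) followed, again without overlap. CFI (0.50 ± 0.14, adjusted p = 0.0174) and CD59 (0.27 ± 0.083, adjusted p = 0.0316) were called with all arrays. The count was 3 without either shDBD array or without shTA replicate 1; the CFI call was lost without any 1 of the 4 shDBD and shTA arrays (adjusted p of 0.0743 to 0.0991), and that of CD59 without either shDBD array or shTA replicate 1 (0.123 to 0.244).

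The C1 proteases ran the other way without passing. C1R was lower with shDBD than with shTA by a difference of −0.28 (95% interval −0.52 to −0.04, adjusted p = 0.116), and C1S by −0.17 (−0.48 to 0.14, adjusted p = 0.511). With the arms fitted separately, the C1R difference passed (adjusted p = 0.0244). For both genes, each shDBD array lay under each shTA array. CD55 (0.36 ± 0.12, adjusted p = 0.0518) lay just outside the threshold, and it passed under 8 of 24 other settings, while its second probe set had the opposite sign (−0.25 ± 0.15).

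**Figure D2:**
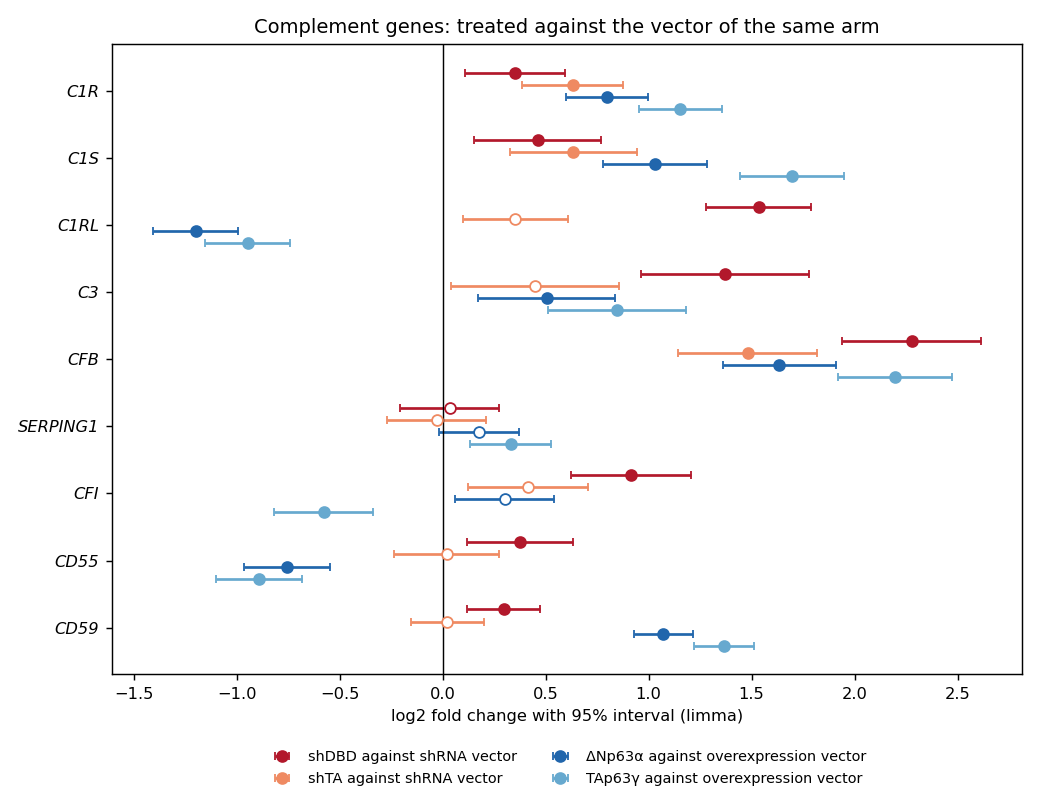
Log2 fold change (points) with its 95% interval (bars, limma) of each complement gene in 4 treated groups against the vector of the same arm; filled points have an adjusted p under 0.05. CFB was called higher in all 4 comparisons, and C1RL ran from 1.53 with shDBD to −1.20 with ΔNp63α.

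On overexpression of ΔNp63α, 5 of the 9 genes rose and 2 fell against the vector, where 28.9% of all genes were called (12.3% higher, 16.6% lower). CFB, CD59, C1S, C1R and C3 rose, and C1RL and CD55 fell. The median change was 0.51 over the 9 genes and 0.00 over all genes. CFB was at 8.16, 8.30 and 7.79 with ΔNp63α, against 6.53, 6.58 and 6.23 with the vector, and rose 3.10-fold (1.63 ± 0.13, adjusted p = 1.42e-07). C1S was at 7.42, 7.28 and 7.06, against 6.23, 6.06 and 6.38 (1.03 ± 0.12, adjusted p = 7.36e-06), and C1R at 8.33, 8.09 and 7.92, against 7.37, 7.33 and 7.24 (0.80 ± 0.093, adjusted p = 8.63e-06). All 3 treated arrays were above all 3 vector arrays for these genes. C3 rose by 0.51 ± 0.16 (adjusted p = 0.0234), but its groups overlapped, at 12.20, 12.07 and 11.62 with ΔNp63α, against 11.19, 11.80 and 11.39. Its call was lost without overexpression vector replicate 1 (adjusted p = 0.109) or 3 (0.0775), without ΔNp63α replicate 1 (0.104) or 2 (0.0818), and with the arms fitted separately (0.0703).

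The membrane inhibitors went in opposite directions with ΔNp63α. CD59 was at 12.65, 12.62 and 12.42, against 11.39, 11.56 and 11.53 with the vector, a rise of 2.10-fold (1.07 ± 0.068, adjusted p = 1.17e-08). CD55 was at 10.01, 10.08 and 9.77, against 10.58, 10.89 and 10.65, and fell by 0.75 ± 0.098 (adjusted p = 2.59e-05). Neither gene's groups overlapped. C1RL fell 2.30-fold, with 6.73, 6.50 and 6.55, against 7.82, 7.79 and 7.77 (−1.20 ± 0.097, adjusted p = 1.89e-07), and was the 40th lowest of 11963 changes. CFI (0.30 ± 0.11, adjusted p = 0.0568) and SERPING1 (0.18 ± 0.092, 95% interval −0.02 to 0.37) did not pass.

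With TAp63γ, all 9 genes were called, 6 higher and 3 lower, where 43.4% of all genes were called (20.5% higher, 22.8% lower). CFB rose 4.58-fold, with 8.75, 8.49 and 8.69, against 6.53, 6.58 and 6.23 with the vector (2.20 ± 0.13, adjusted p = 1.83e-09). C1S rose 3.23-fold, with 7.81, 7.91 and 8.03, against 6.23, 6.06 and 6.38 (1.69 ± 0.12, adjusted p = 1.33e-08). C1R, its partner in C1, rose 2.23-fold, with 8.46, 8.39 and 8.56, against 7.37, 7.33 and 7.24 (1.15 ± 0.093, adjusted p = 6.47e-08). The 3 groups of treated arrays were separated from the vector by far more than their own spread. CD59 rose 2.58-fold, with 12.87, 12.83 and 12.87, against 11.39, 11.56 and 11.53 (1.37 ± 0.068, adjusted p = 2.76e-10), and C3 rose 1.80-fold, with 12.55, 12.10 and 12.27, against 11.19, 11.80 and 11.39 (0.85 ± 0.16, adjusted p = 3.27e-04).

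The genes that fell with TAp63γ were C1RL, CD55 and CFI. C1RL was at 6.83, 6.96 and 6.74, against 7.82, 7.79 and 7.77 with the vector (−0.95 ± 0.097, adjusted p = 9.35e-07), and CD55 at 9.90, 9.74 and 9.80, against 10.58, 10.89 and 10.65 (−0.89 ± 0.098, adjusted p = 1.88e-06). CFI was at 6.04, 6.35 and 6.30, against 6.89, 6.61 and 6.93 (−0.58 ± 0.11, adjusted p = 4.98e-04). None of these 3 overlapped with its vector. SERPING1 rose by 0.33 ± 0.092 (adjusted p = 0.00792), with 5.41, 5.12 and 5.34, against 4.84, 4.92 and 5.12. Its groups overlapped, and 2 of its 3 vector arrays were below the 20th percentile, so the size of that change is uncertain.

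**Figure D3:**
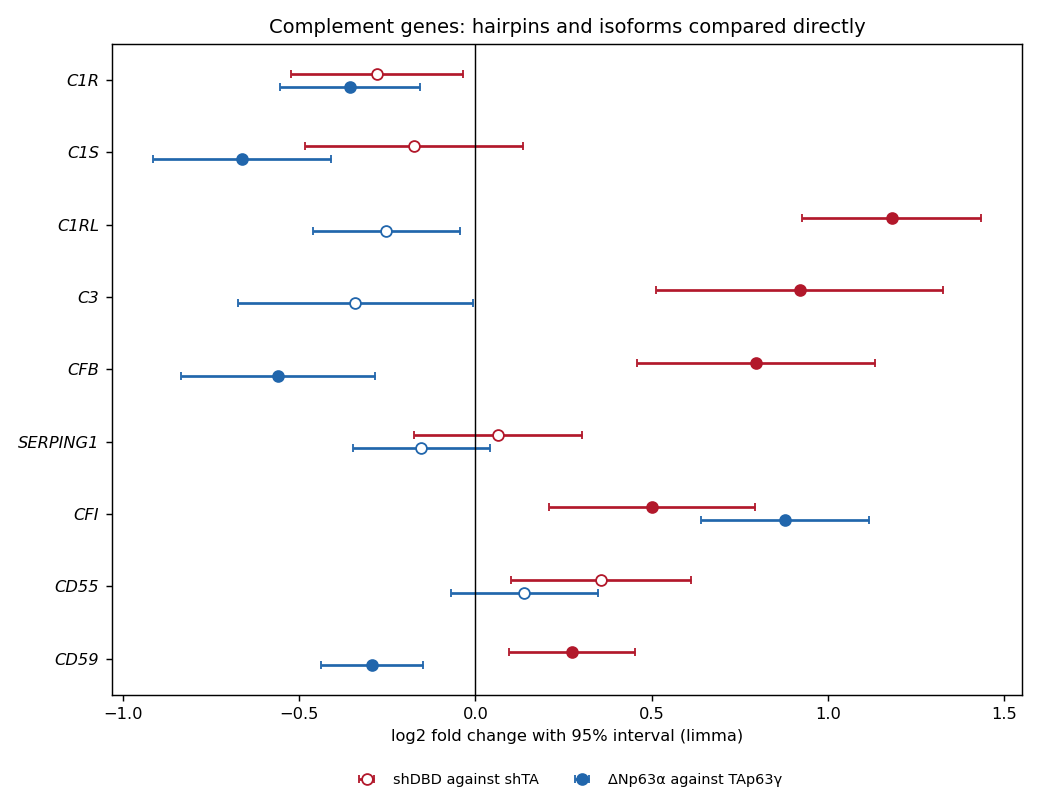
Log2 fold change (points) with its 95% interval (bars, limma) of each complement gene for shDBD against shTA and for ΔNp63α against TAp63γ; filled points have an adjusted p under 0.05. CFI was higher in the first group of both pairs (0.50 and 0.88), whereas C1S was lower with ΔNp63α than with TAp63γ (−0.66).

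Compared directly, 4 of the 9 genes were lower with ΔNp63α than with TAp63γ and 1 higher, where 39.8% of all genes were called (19.2% higher, 20.6% lower). C1S (−0.66 ± 0.12, adjusted p = 3.36e-04), CFB (−0.56 ± 0.13, adjusted p = 0.00251), C1R (−0.36 ± 0.093, adjusted p = 0.00637) and CD59 (−0.29 ± 0.068, adjusted p = 0.00272) were lower with ΔNp63α on every array. Both isoforms raised these 4 genes, and the rise was larger with TAp63γ. C3 was also raised by both, without a called difference between them. CFI was higher with ΔNp63α (0.88 ± 0.11, adjusted p = 1.49e-05), at 7.27, 6.88 and 7.19, against 6.04, 6.35 and 6.30 with TAp63γ, without overlap. It was the gene among the 9 with the largest difference between the isoforms.

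For the remaining 4 genes no difference between the isoforms was called. C1RL differed by −0.25 (95% interval −0.46 to −0.05, adjusted p = 0.0509) and passed in 9 of 24 other settings. C3 differed by −0.34 (−0.67 to −0.01, adjusted p = 0.0987) and SERPING1 by −0.15 (−0.35 to 0.04, adjusted p = 0.209). CD55 differed by 0.14 (−0.07 to 0.35, adjusted p = 0.291) with the probe set used, but its second probe set was higher with ΔNp63α than with TAp63γ by 0.84 ± 0.12 (adjusted p = 4.62e-05).

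Within each arm the groups could be put in order for most genes. In the knockdown arm CFB, C3, C1RL and CFI ran highest with shDBD, then shTA, then the vector, although shTA against the vector was not called for C1RL, C3 and CFI, the last 2 of which passed with the arms fitted separately. C1R and C1S ran highest with shTA, then shDBD, then the vector. The 2 hairpins were not called different for these genes, although C1R passed with the arms fitted separately. In the overexpression arm CFB, C1S, C1R and CD59 ran TAp63γ, ΔNp63α, vector, and each neighbouring pair was called. C1RL and CD55 were highest with the vector. The 2 isoforms were not called different there with the probe sets used, but the second CD55 probe set was called higher with ΔNp63α than with TAp63γ.

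**Figure D4:**
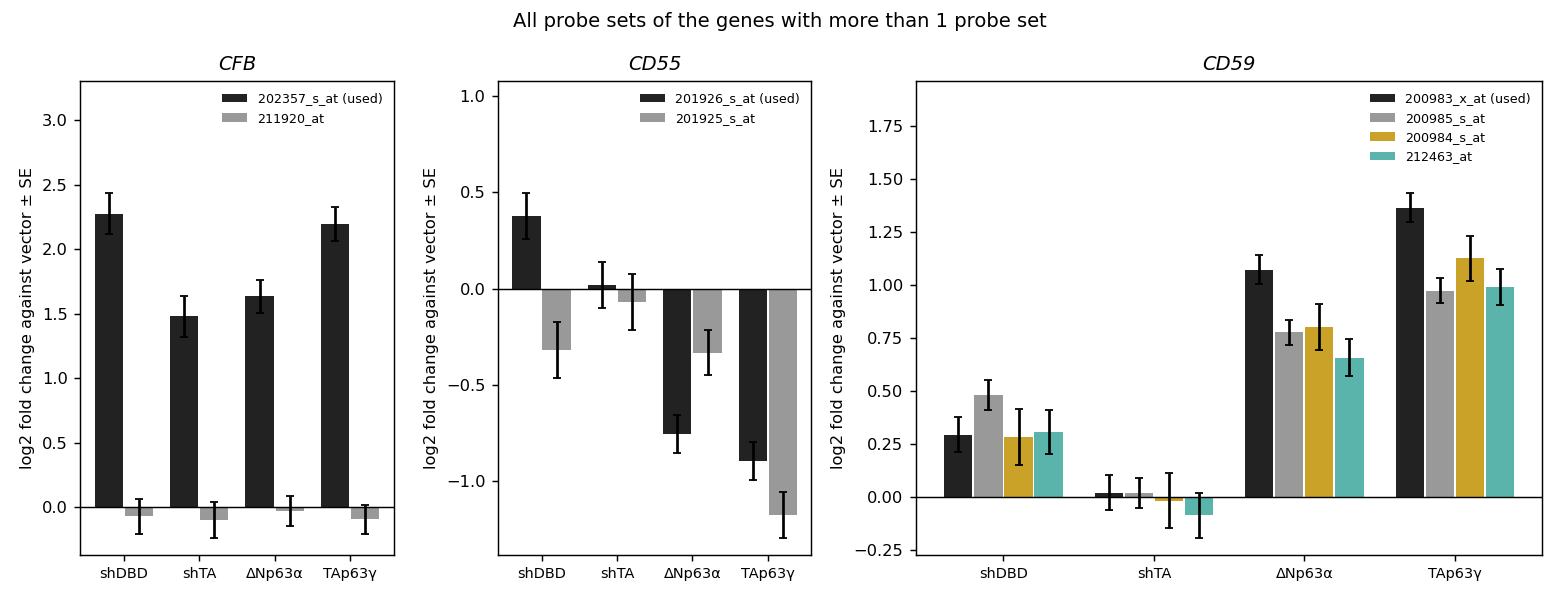
Log2 fold change against the vector ± SE (limma, each probe set tested) for every probe set of CFB, CD55 and CD59, the genes with more than 1. The 4 CD59 probe sets moved together, 1 of 2 CFB probe sets was called in none of the comparisons, and the CD55 probe sets had opposite signs with shDBD.

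Of the 9 genes, 3 had more than 1 probe set. The 4 probe sets of CD59 rose by 0.66 to 1.07 with ΔNp63α and by 0.97 to 1.37 with TAp63γ, all called, and the one used carries a suffix that marks possible cross-hybridization. All 4 were also lower with ΔNp63α than with TAp63γ (−0.20 to −0.33, each called), whereas with shDBD 2 of the 4 were called. The second CFB probe set stayed between −0.10 and −0.03 in the 4 comparisons with a vector, with no call, so the CFB results rest on 1 probe set, and averaging both lowered the change to 1.10 with shDBD, 0.69 with shTA, 0.80 with ΔNp63α and 1.05 with TAp63γ, each still called. Both CD55 probe sets fell with TAp63γ (−0.89 ± 0.099 and −1.17 ± 0.12), whereas with ΔNp63α the second gave −0.33 ± 0.12 (adjusted p = 0.0518).

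Genes whose pattern was most like each member's were taken by Pearson's r over the 15 arrays, after subtracting the mean of each arm's vector arrays. These are descriptions over arrays that share their vector baselines, without a test. Only the nearest gene is given for each member, except for CFB. C1R was most like C1S (r = 0.969), its neighbour on chromosome 12, whereas C1S was most like DNAJA1 (0.977). SERPING1 was most like TESK2 (0.896). CFB was most like EHF, an epithelial ETS-family transcription factor (0.972), the linker histone gene H1-2 (0.948) and GBP2, an interferon-induced GTPase (0.944). CD59 was most like SOX9, a transcription factor (0.985), and CD55 was most like LIAS, which makes lipoic acid (0.981). For C1RL the nearest was VPS28, an endosomal sorting gene (0.980), for CFI PSMD12, a proteasome subunit (0.957), and for C3 the Golgi matrix gene GOLGA2 (0.946). Among the members, C1RL followed CD55 (0.91) and ran against CD59 (−0.70), although C1RL lies next to C1R (−0.55).

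Genes next to the members in the annotation did not always move with them. LPCAT3, a phospholipid acyltransferase gene beside C1S, rose with TAp63γ (1.51 ± 0.13) but was not called with ΔNp63α (0.20 ± 0.13). UBE2L6, which encodes an enzyme of ISG15 conjugation and lies beside SERPING1, rose by 2.26 ± 0.12 with ΔNp63α and by 1.48 ± 0.12 with TAp63γ, where SERPING1 changed by 0.18 and 0.33. TNFSF14, beside C3, rose as C3 did with ΔNp63α (0.61 ± 0.090) and TAp63γ (0.85 ± 0.090) but was not called with shDBD (−0.02 ± 0.11). PLA2G12A and GAR1, on either side of CFI, fell as CFI did with TAp63γ (−0.64 ± 0.12 and −0.29 ± 0.078). Both also fell with ΔNp63α, where CFI was not called. C4BPA and CR2, the complement genes on either side of CD55, were called in none of the 6 comparisons.

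Of 50 other complement genes listed, 42 were measured, and 9 of these were below the 20th percentile on all arrays. With shDBD 6 rose and 1 fell, where 21.3% of all genes were called, and with shTA 2 rose and 0 fell, where 2.29% were. With ΔNp63α 2 rose and 4 fell, where 28.9% of all genes were called, and with TAp63γ 4 rose and 6 fell, where 43.4% were. Their median change was between −0.05 and 0.01 in these 4 comparisons. Of the 11 measured recognition and lectin pathway genes, 0 were called in either knockdown comparison or with ΔNp63α, and 1 rose with TAp63γ. Of the 6 genes of the membrane attack complex, 1 rose with TAp63γ and none was called with the other 3 treatments.

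The other complement genes with a called change of 2-fold or more were CLU, C5 and THBD. CLU encodes clusterin, a fluid-phase inhibitor of membrane attack. It stood at 9.08, 9.01 and 9.16 with TAp63γ, against 7.14, 7.32 and 7.37 with the vector (1.80 ± 0.087, adjusted p = 1.84e-10), and rose with ΔNp63α (0.58 ± 0.087) and with shDBD (0.81 ± 0.11), in both without overlap. C5, which starts membrane attack, was at 5.02, 4.99 and 4.84 with TAp63γ, against 6.19, 6.38 and 6.08 with the vector (adjusted p = 2.35e-08). It was below the 20th percentile on 5 arrays, which include all 3 TAp63γ arrays, so the size of its fall is uncertain. THBD encodes thrombomodulin, an anticoagulant cofactor that also restrains complement. It stood at 7.69 and 7.58 with shDBD, against 8.91 and 8.98 with the shRNA vector (−1.32 ± 0.12, adjusted p = 7.61e-07). With shTA, THBD rose (0.49 ± 0.12, adjusted p = 0.0394).

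**Figure D5:**
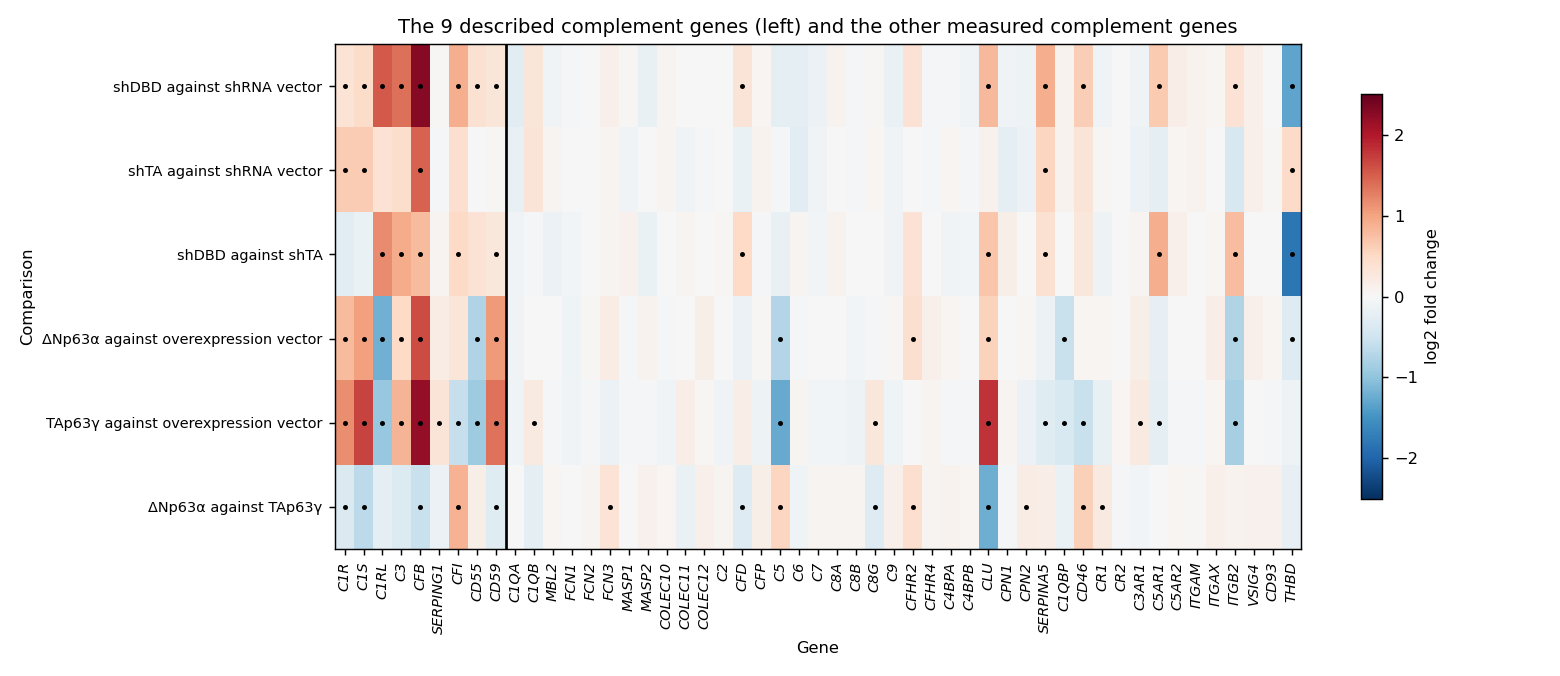
Log2 fold change (colour) of the 9 described genes, left of the black line, and of 42 other measured complement genes, in 6 comparisons (rows); dots mark an adjusted p under 0.05. Most of the other genes are pale and undotted, with CLU, C5 and THBD as the ones past 2-fold.

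Other gene groups moved beside these results, and their part in them was not tested. Of 24 measured interferon-induced genes, 24 rose with ΔNp63α (12.3% of all genes did) and 22 with TAp63γ (20.5%). With shDBD 10 rose (11.1%) and 1 fell (10.2%), and with shTA 1 rose (1.44%) and 1 fell (0.853%). Between the isoforms, 20 of the 24 were higher with ΔNp63α (19.2% of all genes were) and 0 lower (20.6%). Of the 9 complement genes, CFB, C1R, C1S and CD59 were called lower with ΔNp63α than with TAp63γ, and CFI higher. Against the vector, CFB, C1R, C1S and CD59 were called higher with both isoforms. Of 12 measured acute-phase genes, 3 rose with TAp63γ (20.5% of all genes did) and 2 with ΔNp63α (12.3%), and 0 fell with either. With shDBD 1 acute-phase gene rose (11.1% of all genes did) and 1 fell (10.2%), and with shTA 1 rose (1.44%), SERPINA3 (1.10 ± 0.090). SERPINA1, the elastase inhibitor α1-antitrypsin, rose with TAp63γ (3.27 ± 0.14) and fell with shDBD (−0.95 ± 0.18), whereas the iron-siderophore binder LCN2 (2.78 ± 0.098) and the protease inhibitor SERPINA3 (1.54 ± 0.074) rose with TAp63γ.

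Markers of other cell types were also read. Of 11 leukocyte markers, 2 rose with shDBD, where 11.1% of all genes did: CD14 (10.22 and 10.44, against 9.14 and 8.98 with the shRNA vector) and CSF1R (8.41 and 8.53, against 8.07 and 8.02), while LYZ was below the 20th percentile on all 15 arrays. CD14 fell with ΔNp63α (−0.48 ± 0.091) and with TAp63γ (−0.55 ± 0.091), the calls of the list in those comparisons. The summed level of the list was 11.1 to 11.25 with shDBD and 10.44 to 10.56 with the vector on the log2 scale. Of 9 fibroblast markers, DCN rose and FAP fell with shDBD, where the summed level was 11.42 to 11.45, against 10.55 to 10.58 with the vector. DCN also rose with shTA (0.83 ± 0.13) and fell with ΔNp63α (−0.39 ± 0.11), FAP rose with TAp63γ (1.11 ± 0.093), and LUM was below the 20th percentile on all arrays. None of 10 hepatocyte markers was called with either hairpin or with ΔNp63α, while with TAp63γ APOA2 (0.28 ± 0.078) and TTR (0.24 ± 0.092) rose and CYP3A4 fell (−0.30 ± 0.084). ALB and FGB were below the 20th percentile on all arrays. Of 6 endothelial markers, PECAM1 (0.41 ± 0.12) and KDR (0.29 ± 0.093) rose with shDBD and PECAM1 with ΔNp63α (0.31 ± 0.096), none was called with shTA or TAp63γ, and CDH5 and TIE1 were below the 20th percentile on all arrays. The summed endothelial level was 9.005 to 9.031 with shDBD and 8.82 to 8.925 with the shRNA vector. The actin 3′ minus 5′ difference, a measure of RNA integrity, was 0.0668 ± 0.0262 with shDBD, 0.102 ± 0.14 with shTA and −0.0868 ± 0.00982 with the shRNA vector (SD, n = 2 each). It was 0.162 ± 0.0594 with ΔNp63α, 0.0772 ± 0.0663 with TAp63γ and 0.17 ± 0.0578 with the overexpression vector (SD, n = 3 each). The GAPDH difference was 0.0342 ± 0.0158 with shDBD, 0.0369 ± 0.0414 with shTA and 0.00674 ± 0.00094 with the shRNA vector (SD). In the overexpression arm GAPDH gave 0.0553 ± 0.0782 with ΔNp63α, −0.0293 ± 0.0496 with TAp63γ and 0.0132 ± 0.0328 with the vector (SD). The part of these differences in the complement results was not tested.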

How the data were processed

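Total RNA of 15 samples was hybridized to Affymetrix arrays. The authors deposited 1 log2 expression value for each probe set and array, and per the submitters' processing notes RMA produced it. The RMA version, and whether the arms were processed in 1 run, are not given here. RMA equalizes array distributions and compresses low levels. Of 22277 probe sets, 19064 had 1 symbol in the platform annotation and gave 11963 genes. The arms were treated as normalized separately. Tests used limma 3.58.1 (R 4.3.3): a mean per group over all 15 arrays, which share 1 variance per gene (9 residual and 5.87 prior degrees of freedom), a trend on the mean level, two-sided tests and Benjamini-Hochberg adjustment over all genes. The fit was tested on simulated data in which arrays varied independently, so that run does not cover a factor shared between groups. No filter on low values was used. The sources used here name no batch. Same-numbered replicates did not pair consistently: their deviations from the group means correlated at 0.00137 to 0.069 in the knockdown arm and −0.628 to 0.476 in the overexpression arm. Differently numbered arrays of the overexpression arm correlated at −0.725 to 0.675. Those deviations may hold a factor shared between groups, which was neither tested nor included in the main fit. The members and lists were chosen with earlier results of these data known. Named genes were the 9 members, other complement genes called with at least 2-fold change, up to 3 of the acute-phase and interferon lists, the most similar genes, the genes next to a member, and markers. A total of 24 other settings were tried: separate arms, no trend, a filter and a floor at the 20th percentile, quantile and cyclic loess normalization, other probe set rules, a replicate block and each array left out.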

Additional observations from a re-analysis of the deposited data

How the results depend on the processing

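Of 54 values (9 genes in 6 comparisons), 37 were called, and 28 of these were called under every setting run for them; none of the 37 turned its sign. In the overexpression arm 20 of 21 calls held throughout, all but C3 with ΔNp63α, and in the knockdown arm 8 of 16 did. Of 17 values not called, 9 passed under at least 1 setting. No setting put a gene's other probe set in place of the one used, so the signs above cover used or averaged probe sets only. With shDBD the second CD55 probe set had the opposite sign (−0.32 ± 0.15, not called). Leaving out 1 array of a group of 2 assumes that the lone array varies like the other groups.

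With the arms fitted separately, 5 genes were called with shTA, and over all genes 1064 with shTA and 3359 between the hairpins. With the replicate block, 5 genes were called with shDBD, and 150 of all genes with shTA. Leaving out each array gave 4 to 8 called genes with shDBD, 1 to 3 with shTA and 3 to 6 between the hairpins; over all genes it gave 1650 to 2968, 87 to 472 and 1348 to 2588. Averaging all probe sets ended the CD55 call with shDBD (0.03, adjusted p = 0.882). The floor ended the C1S call with shTA (adjusted p = 0.0506). The block also ended calls of C1S with shTA (0.0922) and CD59 between the hairpins (0.0741). The cause of these shifts was not tested. With cyclic loess, 1775 genes were higher and 1572 lower with ΔNp63α, against 1469 and 1985 as deposited. With the floor, 3514 were higher and 2503 lower with ΔNp63α than with TAp63γ, against 2297 and 2465.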
